A study of Mus musculus with 16 samples.

Results

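The collagen chains are the genes whose name in the scanner files is Col, a number, the letter a and a number, counted over the spots that are not controls. This rule found 44 of the 34836 gene names on the array, read by 69 distinct probes. By the structure that each chain is known to form, 11 were fibrillar, 8 belonged to basement membranes and 25 were other collagens. The rule used names and no measured value. A gene entered the tests when the median log2 signal of its brightest probe over all 16 arrays was at least 5, and 30 of the 44 chains did: 8 fibrillar, 6 of basement membrane and 16 others. Above the scanner software's background limit on every array of at least 1 group were 37 chains, while Col4a3, Col6a6 and Col9a3 were above it on no array by any probe.

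Collagens are secreted proteins in which chains wind around each other as a triple helix, a structure that needs a glycine in each repeat of the sequence Gly-X-Y. Fibrillar chains pack into the cables of tendon, bone and connective tissue, type IV chains make the sheet-like network of basement membranes, and the remaining types decorate fibrils, form beaded filaments, anchor sheets to tissue or span the cell membrane. In skeletal muscle each fiber lies within a basement membrane, and the satellite cell, the muscle stem cell, sits beneath it. Collagen made by cells in and around this niche is part of the surface on which myoblasts divide and differentiate.

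The arrays profiled myoblasts, the proliferating progeny of satellite cells, from male C57Bl/6J mice aged 11 to 13 weeks, and the labels name no transgene or drug for any group. Dispersed myoblasts had been grown on gelatin-coated plates and were collected at 48 hr (Dis48) or 72 hr (Dis72) after isolation. Myofiber-associated myoblasts had stayed on explanted muscle fibers in culture and were stripped off with trypsin at 48 hr (MfA48) or 72 hr (MfA72). Each group held 4 arrays, each from a separate preparation of 1 mouse (dispersed) or 2 mice (myofiber-associated), and the MfA48 array titled 10+11 was a pool of 2 preparations. Gelatin is itself denatured collagen, although the protein on the plate is not RNA and is not read by the array. The question was how the chains differ between 48 and 72 hr in each culture, whether that change differs between the cultures, and how the cultures compare at each time.

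The repeat that defines the family is visible in the probes themselves, and the 2 probes in which every position of the repeat falls on a glycine codon are shown for this reason. All 69 probes were read in every frame, with codons sought at the glycine place of each Gly-X-Y repeat. Both matches were the probe used for their gene, Col15a1 at chr4:47283786-47283845 and Col25a1 at chr3:130270497-130270556, both on the plus strand of mm9. The 6 glycine codons of each are in capitals.

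Probe of Col15a1: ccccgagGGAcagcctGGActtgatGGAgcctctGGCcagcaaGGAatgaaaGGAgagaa
Probe of Col25a1: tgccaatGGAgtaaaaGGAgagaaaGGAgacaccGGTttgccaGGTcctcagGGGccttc

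The bases before the start of 3 genes that the results turn on are shown as background, Col10a1, whose change over time differed between the cultures, and the neighbouring genes Col6a1 and Col6a2, which fell together in dispersed myoblasts. The RefSeq promoter table of build GRCm38.p6 held 35 of the 44 chains. The 250 bases are given in the direction of transcription, for Col10a1 at chr10:34389731-34389980 on the plus strand, for Col6a1 at chr10:76726045-76726294 and for the outer of 2 listed starts of Col6a2 at chr10:76623631-76623880, both on the minus strand. Capitals mark the letters TATAAA, sought on both strands. They occur 1 time, 32 bases before the start of Col10a1, and the other windows do not hold them. Of all 32851 windows of 250 bases in the table, 12.4% hold the motif. A match of letters is a description and not a bound site.

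Upstream of Col10a1: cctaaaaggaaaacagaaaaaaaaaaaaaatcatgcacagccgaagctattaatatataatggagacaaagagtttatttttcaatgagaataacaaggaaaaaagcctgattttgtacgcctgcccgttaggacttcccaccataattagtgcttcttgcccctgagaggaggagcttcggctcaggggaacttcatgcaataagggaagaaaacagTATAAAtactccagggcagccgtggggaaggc
Upstream of Col6a1: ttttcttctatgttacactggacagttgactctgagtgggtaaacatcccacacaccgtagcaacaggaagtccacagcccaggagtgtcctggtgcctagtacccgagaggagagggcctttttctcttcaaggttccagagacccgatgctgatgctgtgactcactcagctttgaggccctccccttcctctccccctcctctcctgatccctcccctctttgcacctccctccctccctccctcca
Upstream of Col6a2: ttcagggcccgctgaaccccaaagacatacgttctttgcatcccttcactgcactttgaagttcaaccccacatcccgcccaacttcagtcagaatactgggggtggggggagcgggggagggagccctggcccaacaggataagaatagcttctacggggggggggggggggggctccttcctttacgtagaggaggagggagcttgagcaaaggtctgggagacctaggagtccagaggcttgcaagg

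On each array 54.0 to 63.5% of probes were well above background, and no gene spot was saturated. Arrays of a group correlated at r = 0.980 to 0.998. The median SD of the tested chains on the log2 scale was 0.218 in Dis48, 0.264 in Dis72, 0.298 in MfA48 and 0.344 in MfA72. All 8 myofiber-associated arrays were on slide 1 and all 8 dispersed arrays on slide 2, each scanned apart, so culture cannot be told apart from slide and scan. Both times lay on each slide. The myoblast genes Myod1 and Pax7 were above background on all arrays. Adult fiber genes were high in the myofiber-associated arrays (log2 of the summed signal of 10 genes 18.1 to 21.0, against 13.5 to 15.3 in dispersed), although the sample description states that RNA of the fiber was absent. Within MfA72, replicates 2 and 4 had fiber sums of 19.99 and 20.37 and replicates 1 and 3 had 18.58 and 18.13.

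Between 48 and 72 hr, 10 of the 30 tested chains changed in dispersed myoblasts, 5 higher and 5 lower, and 8 changed in myofiber-associated myoblasts, 4 higher and 4 lower (limma, adjusted p below 0.01 over 20317 genes). Over all genes tested the shares called were 13.7% in dispersed (7.38% higher and 6.32% lower) and 5.48% in myofiber-associated myoblasts (3.74% higher and 1.74% lower). The shares of tested chains called were 33.3% and 26.7%. In dispersed myoblasts Col2a1, Col7a1, Col12a1, Col27a1 and Col8a1 rose and Col6a2, Col6a1, Col20a1, Col23a1 and Col4a2 fell. In myofiber-associated myoblasts Col10a1, Col26a1, Col2a1 and Col27a1 rose and Col6a3, Col5a3, Col1a1 and Col6a2 fell. Col2a1 and Col27a1 thus rose and Col6a2 fell in both cultures. The median log2 difference of the tested chains was -0.01 in dispersed and -0.27 in myofiber-associated myoblasts, where all genes had medians of 0.02 and 0.06. All 18 of these calls had the same direction within each row of the slides. The rows split the same arrays that gave the calls, so this is no separate check of them.

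With each of the 8 arrays left out in turn, 5 of the 10 calls in dispersed myoblasts remained, those of Col7a1, Col8a1, Col6a1, Col6a2 and Col20a1. Col27a1 lost its call without Dis48 replicate 2 or Dis72 replicate 7 (adjusted p up to 0.0114), Col12a1 without Dis48 replicate 4 or Dis72 replicate 6 or 7 (up to 0.0129), Col4a2 without Dis48 replicate 2, 3 or 4 or Dis72 replicate 6 or 8 (up to 0.0226), Col2a1 without any of these 8 but Dis48 replicate 2 or Dis72 replicate 8 (up to 0.0263) and Col23a1 without any but Dis48 replicate 1 (up to 0.0264). In myofiber-associated myoblasts 3 of the 8 calls remained, those of Col10a1, Col26a1 and Col6a3. Col2a1 lost its call without MfA72 replicate 1, 2 or 3 or MfA48 replicate 7 (up to 0.0166), Col5a3 without those or MfA48 replicate 8 or 9 (up to 0.0136), Col1a1 and Col6a2 without any array but MfA72 replicate 4 (up to 0.0296 and 0.0348) and Col27a1 without any but the pool titled 10+11 (up to 0.0346).

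**Figure D1:**
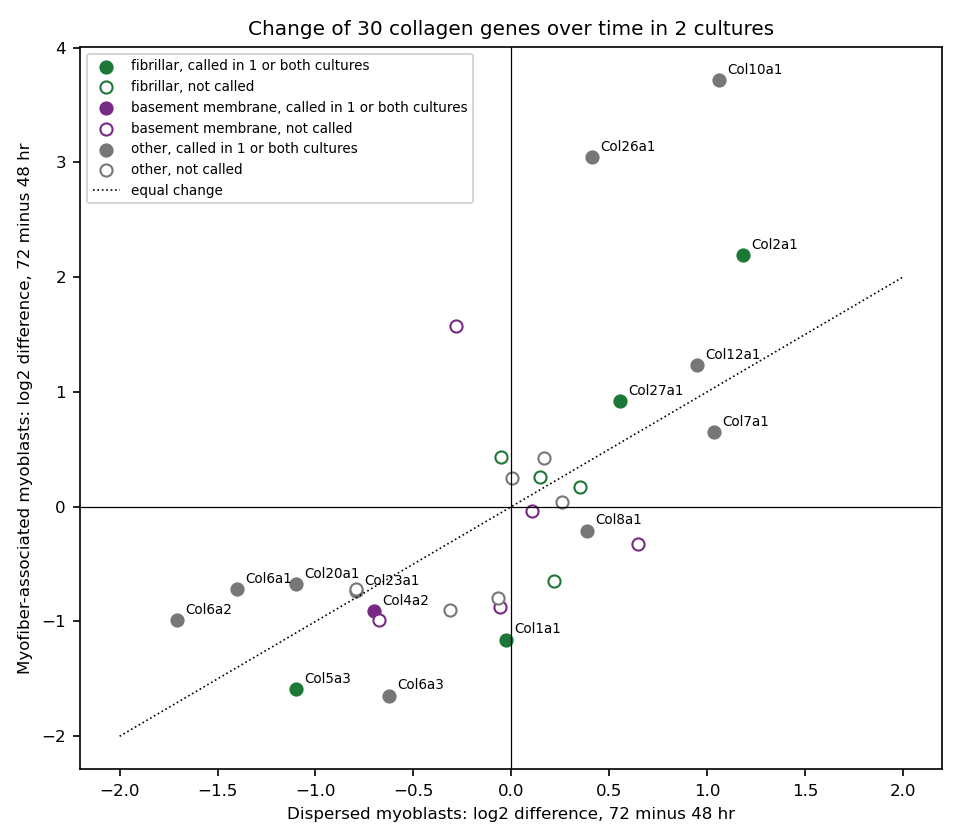
Log2 difference between 72 and 48 hr in dispersed (x axis) and myofiber-associated (y axis) myoblasts for the 30 tested chains, colored by class, with filled points for chains called in at least 1 culture. Col10a1 at 1.06 and 3.72 and Col26a1 at 0.41 and 3.05 lie far above the dotted line of equal change.

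Fibrillar chains did not share a direction. Type I chains were lower in myofiber-associated than in dispersed myoblasts at 72 hr, the cartilage chain Col2a1 rose over time in both cultures, and Col3a1 was higher in myofiber-associated myoblasts at 72 hr. Of 8 tested fibrillar chains, 2 rose and 0 fell in dispersed myoblasts, and 2 rose and 2 fell in myofiber-associated myoblasts. Set against the dispersed culture, fibers had 0 of these higher and 3 lower at 48 hr, and 1 higher and 3 lower at 72 hr. Over all genes 7.38% rose and 6.32% fell over time in dispersed, and 3.74% rose and 1.74% fell in myofiber-associated myoblasts. Between cultures 16.1% of all genes were higher and 27.0% lower on fibers at 48 hr, and 11.5% and 15.6% at 72 hr. Median differences of the fibrillar chains were 0.18 in dispersed and 0.21 in myofiber-associated myoblasts over time, and -0.49 and -0.24 between cultures at 48 and 72 hr. In the lists of values that follow, the 4 arrays of a group are given from the lowest to the highest, on the log2 signal scale.

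Col1a1 encodes the more abundant chain of type I collagen, the main fibril protein of connective tissue. In dispersed myoblasts it read 11.73, 12.40, 12.52 and 12.62 at 48 hr and 11.84, 12.22, 12.53 and 12.58 at 72 hr, and the times overlapped. Myofiber-associated arrays gave 11.59, 11.61, 11.88 and 12.00 at 48 hr and 10.26, 10.29, 10.78 and 11.12 at 72 hr, every later array being below every earlier one. The difference over time there was -1.16 ± 0.21 (SE, 4 arrays a group), 2.23-fold lower at 72 hr (adjusted p = 0.00905), while in dispersed myoblasts it was -0.03 ± 0.23 (adjusted p = 0.95). At 72 hr Col1a1 was 3.21-fold lower in myofiber-associated than in dispersed myoblasts (adjusted p = 0.000979). Fibroblast markers were lower in the same comparison for 5 of 10 tested genes and higher for 0, with a median of -0.99, and their part was not tested. Its partner Col1a2 read 15.22, 15.38, 15.65 and 15.74 at 48 hr and 15.35, 15.64, 15.92 and 15.95 at 72 hr in dispersed myoblasts. On fibers it read 14.26, 14.57, 14.68 and 14.73 at 48 hr and 13.49, 13.71, 13.99 and 14.47 at 72 hr, below all dispersed arrays at either time. Col1a2 was 1.91-fold lower at 48 hr (adjusted p = 0.000892) and 3.48-fold lower at 72 hr (adjusted p = 0.00056), and its change over time on fibers, -0.65 ± 0.21, did not pass (adjusted p = 0.0591).

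Col3a1, the chain of type III collagen, which forms fine reticular fibers, read 13.11, 13.27, 13.33 and 13.35 at 48 hr and 13.02, 13.20, 13.24 and 13.38 at 72 hr in dispersed myoblasts. In myofiber-associated myoblasts it read 13.18, 13.35, 13.61 and 13.76 at 48 hr and 13.73, 13.74, 13.96 and 14.18 at 72 hr. The 72-hr arrays of the cultures did not overlap, with Col3a1 1.62-fold higher on fibers (adjusted p = 0.00287), opposite in direction to both type I chains. This call was lost without Dis72 replicate 6 or 7 (adjusted p up to 0.0109). Over time Col3a1 passed in neither culture (adjusted p = 0.69 and 0.08).

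Type V chains are minor parts of fibrils that set their number and width. Col5a1 read 11.51, 11.51, 11.58 and 11.67 at 48 hr and 11.75, 11.89, 11.92 and 12.10 at 72 hr in dispersed and 11.03, 11.09, 11.10 and 11.19 at 48 hr and 11.12, 11.25, 11.31 and 11.40 at 72 hr in myofiber-associated myoblasts. It was lower on fibers by 1.38-fold at 48 hr (adjusted p = 0.000856) and 1.56-fold at 72 hr (adjusted p = 0.00123), with no overlap at either time. Col5a2 passed in none of the 5 comparisons, with 10.09, 10.21, 10.24 and 10.28 at 48 hr and 10.26, 10.29, 10.43 and 10.44 at 72 hr in dispersed and 9.52, 9.63, 9.99 and 10.21 at 48 hr and 9.68, 9.91, 10.38 and 10.43 at 72 hr in myofiber-associated myoblasts. Col5a3 read 12.01, 12.71, 12.84 and 13.04 at 48 hr and 10.84, 11.66, 11.82 and 11.86 at 72 hr in dispersed myoblasts. On fibers Col5a3 read 13.14, 13.27, 13.32 and 13.59 at 48 hr and 11.26, 11.48, 11.92 and 12.31 at 72 hr. All 72-hr arrays lay below all 48-hr arrays in both cultures, with a difference of -1.59 ± 0.22 on fibers (3.01-fold, adjusted p = 0.00395) and -1.10 ± 0.29 in dispersed myoblasts that did not pass (adjusted p = 0.0246).

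Col2a1, the chain of cartilage fibrils, rose in both cultures. Dispersed arrays gave 7.07, 7.21, 7.43 and 7.92 at 48 hr and 8.18, 8.38, 8.74 and 9.06 at 72 hr. Myofiber-associated arrays gave 5.25, 6.17, 6.62 and 6.62 at 48 hr and 7.98, 8.27, 8.31 and 8.87 at 72 hr. Without overlap between times, the rise was 2.27-fold in dispersed (log2 1.18 ± 0.24, adjusted p = 0.00835) and 4.58-fold in myofiber-associated myoblasts (log2 2.20 ± 0.32, adjusted p = 0.0047). The changes were not shown to differ between cultures (difference -1.01 ± 0.43, adjusted p = 0.111). Col27a1, another fibrillar chain of cartilage, read 7.63, 7.65, 7.72 and 7.82 at 48 hr and 8.09, 8.15, 8.35 and 8.44 at 72 hr in dispersed and 6.95, 7.10, 7.18 and 7.49 at 48 hr and 7.79, 7.95, 8.28 and 8.38 at 72 hr in myofiber-associated myoblasts. Its rise was 1.47-fold (adjusted p = 0.00287) and 1.89-fold (adjusted p = 0.00935), and at 48 hr it was 1.44-fold lower on fibers (adjusted p = 0.00538), a call that was lost without any array but the MfA48 pool (adjusted p up to 0.0187).

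Col11a1, which joins type II collagen in cartilage fibrils, fell short of the signal limit and was chosen after its values were seen. In dispersed myoblasts it was above background on all 8 arrays, with 4.98, 5.10, 5.19 and 5.81 at 48 hr and 6.46, 6.96, 7.23 and 7.81 at 72 hr, and the times did not overlap. It was not well above background on any myofiber-associated array. The level in dispersed myoblasts was at least 2.82-fold higher at 48 hr and at least 10.8-fold higher at 72 hr, taking on each dim array the lowest signal that was above background.

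**Figure D2:**
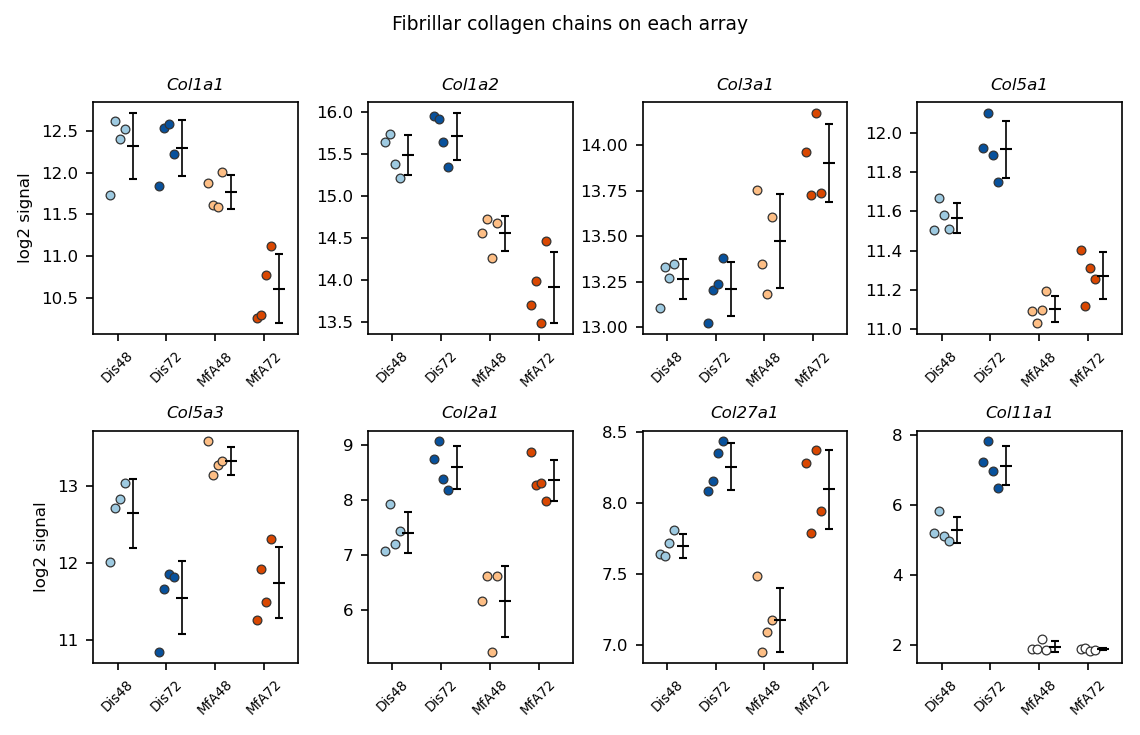
Log2 signal of 8 fibrillar chains on each of the 16 arrays, with the mean and SD of 4 arrays beside each group; open points are not well above background, and each panel has its own axis. The means of Col1a1 and Col1a2 are lowest in MfA72, while Col2a1 is higher at 72 than at 48 hr in both cultures.

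Col4a1 and Col4a2 were lower in myofiber-associated than in dispersed myoblasts by 4.30-fold and 4.36-fold at 48 hr. Col18a1 was lower at 48 hr and overlapped the dispersed arrays at 72 hr, and Col4a4 was higher on fibers by the probe used. Of 6 tested chains, 0 rose and 1 fell in dispersed myoblasts and 0 were called in myofiber-associated myoblasts (at an adjusted p below 0.05, Col4a1 and Col4a2 were lower and Col18a1 higher). Between cultures 1 was higher and 4 lower at 48 hr, and 1 was higher and 3 lower at 72 hr, with median differences of -1.33 and -1.08 beside -0.12 and -0.02 over all genes. Of all genes tested, 13.7% were called over time in dispersed and 5.48% in myofiber-associated myoblasts. Between cultures 43.2% of all genes were called at 48 hr and 27.1% at 72 hr. Taking type IV chains alone left 1 higher and 3 lower at each time.

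Col4a1 and Col4a2 encode the chains of the type IV network found in all basement membranes, and the genes lie head to head. Col4a1 read 14.23, 14.55, 14.56 and 14.66 at 48 hr and 13.39, 13.85, 13.97 and 14.09 at 72 hr in dispersed myoblasts. On fibers it read 12.05, 12.20, 12.40 and 12.93 at 48 hr and 11.29, 11.31, 11.41 and 11.60 at 72 hr. Col4a2 read 13.99, 14.24, 14.28 and 14.33 at 48 hr and 13.15, 13.51, 13.61 and 13.75 at 72 hr in dispersed and 11.75, 11.96, 12.01 and 12.60 at 48 hr and 11.08, 11.10, 11.18 and 11.33 at 72 hr in myofiber-associated myoblasts. The groups fell in the same order for both genes, Dis48, Dis72, MfA48 and MfA72 from high to low, and no neighbouring groups overlapped. At 48 hr both were called lower on fibers (adjusted p = 5.75e-05 for Col4a1 and 3.95e-05 for Col4a2). At 72 hr Col4a1 was lower by 5.35-fold (adjusted p = 2.38e-05) and Col4a2 by 5.04-fold (adjusted p = 1.53e-05), and the calls at both times remained with any array left out. Over time Col4a2 fell 1.63-fold in dispersed myoblasts (adjusted p = 0.00688) and Col4a1 fell short of the threshold (log2 -0.68 ± 0.16, adjusted p = 0.0159). In myofiber-associated myoblasts neither passed (Col4a1 -0.99 ± 0.19, adjusted p = 0.011, and Col4a2 -0.91 ± 0.18, adjusted p = 0.0119).

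Endothelial markers moved with these chains. Of 13 endothelial genes all were tested, 12 fell in dispersed and 8 fell in myofiber-associated myoblasts, and 12 were lower on fibers at 48 hr and 11 at 72 hr. Their summed signal on the log2 scale ranged over 17.0 to 17.5 in Dis48, 15.6 to 16.1 in Dis72, 14.6 to 15.6 in MfA48 and 13.7 to 14.1 in MfA72, and all 13 were above background on all arrays. Endothelial cells are a known source of type IV collagen, and the part of these markers in the result was not tested. In such bulk samples fewer cells of a type and less RNA per cell cannot be told apart.

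The other type IV chains differed among themselves. Col4a3 was not above background. Its neighbour Col4a4 read 5.40, 5.47, 5.66 and 5.89 at 48 hr and 5.46, 5.48, 5.50 and 5.76 at 72 hr in dispersed and 6.59, 7.04, 7.73 and 7.82 at 48 hr and 6.04, 6.22, 6.57 and 6.84 at 72 hr in myofiber-associated myoblasts, 3.22-fold higher on fibers at 48 hr (adjusted p = 0.000992) and 1.83-fold at 72 hr (adjusted p = 0.00474), the latter lost without Dis72 replicate 6, 7 or 8 or MfA72 replicate 2 (adjusted p up to 0.0168). Another Col4a4 probe, above background on 8 of the 16 arrays, had the opposite sign at 48 hr (-0.56) and differed by 0.145 at 72 hr. Over time that probe rose by 1.43 on fibers, where the probe used read -0.87, and by 0.72 in dispersed myoblasts against -0.055. The higher level on fibers is thus stated for the probe used alone. In MfA72 that probe read 6.57 and 6.84 on replicates 2 and 4, which had the higher fiber marker sums (19.99 and 20.37). Replicates 1 and 3, with sums of 18.58 and 18.13, read 6.22 and 6.04. The part of fiber RNA in the level of Col4a4 was not tested. Col4a5 read 6.68, 6.72, 7.04 and 7.10 at 48 hr and 7.19, 7.54, 7.56 and 7.85 at 72 hr in dispersed and 6.14, 6.33, 6.35 and 6.54 at 48 hr and 5.82, 5.86, 6.05 and 6.34 at 72 hr in myofiber-associated myoblasts. It was lower on fibers by 1.46-fold at 48 hr (adjusted p = 0.00651, up to 0.0226 without MfA48 replicate 7, 8 or 9 or Dis48 replicate 2 or 3) and 2.86-fold at 72 hr (adjusted p = 0.000264). Col4a6, with 7.04, 7.07, 7.14 and 7.17 at 48 hr and 6.99, 7.24, 7.30 and 7.31 at 72 hr in dispersed and 6.94, 7.39, 7.55 and 7.58 at 48 hr and 7.12, 7.28, 7.43 and 7.47 at 72 hr in myofiber-associated myoblasts, passed in no comparison.

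Col18a1 encodes a basement membrane proteoglycan whose last domain is released as endostatin. Dispersed arrays gave 14.72, 15.01, 15.10 and 15.16 at 48 hr and 14.21, 14.77, 14.84 and 15.04 at 72 hr. Myofiber-associated arrays gave 11.87, 12.24, 12.72 and 13.17 at 48 hr and 13.63, 13.64, 14.46 and 14.55 at 72 hr. At 48 hr all fiber arrays lay below all dispersed arrays, 5.66-fold lower on average (adjusted p = 0.00012), and at 72 hr the cultures overlapped (log2 -0.65 ± 0.27, adjusted p = 0.0831). The difference over time on fibers, 1.57 ± 0.33, missed the threshold (adjusted p = 0.0155), as did its difference from the change in dispersed myoblasts (-1.86 ± 0.40, adjusted p = 0.0101). With MfA72 replicates 2 and 4 left out, a choice made after seeing the data, both passed (2.01 ± 0.35, adjusted p = 0.00994, and -2.29 ± 0.39, adjusted p = 0.00133). These 2 arrays hold the lowest MfA72 values of Col18a1 (13.64 and 13.63). Leaving them out raises the 72-hr level on fibers by itself, so the 2 passes add no support. A second Col18a1 probe moved by -0.20 in dispersed and 1.43 in myofiber-associated myoblasts. Over this interval on fibers 8 of the 13 endothelial genes fell and 0 rose, and their part in the level of Col18a1 was not tested.

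Col15a1, the close relative of Col18a1, was below the signal limit and untested, with 5.93, 6.00, 6.20 and 6.24 at 48 hr and 4.75, 5.11, 5.34 and 5.47 at 72 hr in dispersed and 4.23, 4.30, 4.36 and 4.74 at 48 hr and 3.63, 3.88, 4.36 and 4.48 at 72 hr in myofiber-associated myoblasts, 1 of the MfA48 arrays not being above background. The cultures did not overlap at either time, and the Dis72 arrays lay below the Dis48 arrays. Its 3 probes had the same signs over time and between cultures. When no filter on signal was applied, only the difference between cultures at 48 hr passed among the 5 comparisons of Col15a1 (log2 -1.69 ± 0.13, adjusted p = 0.000131).

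**Figure D3:**
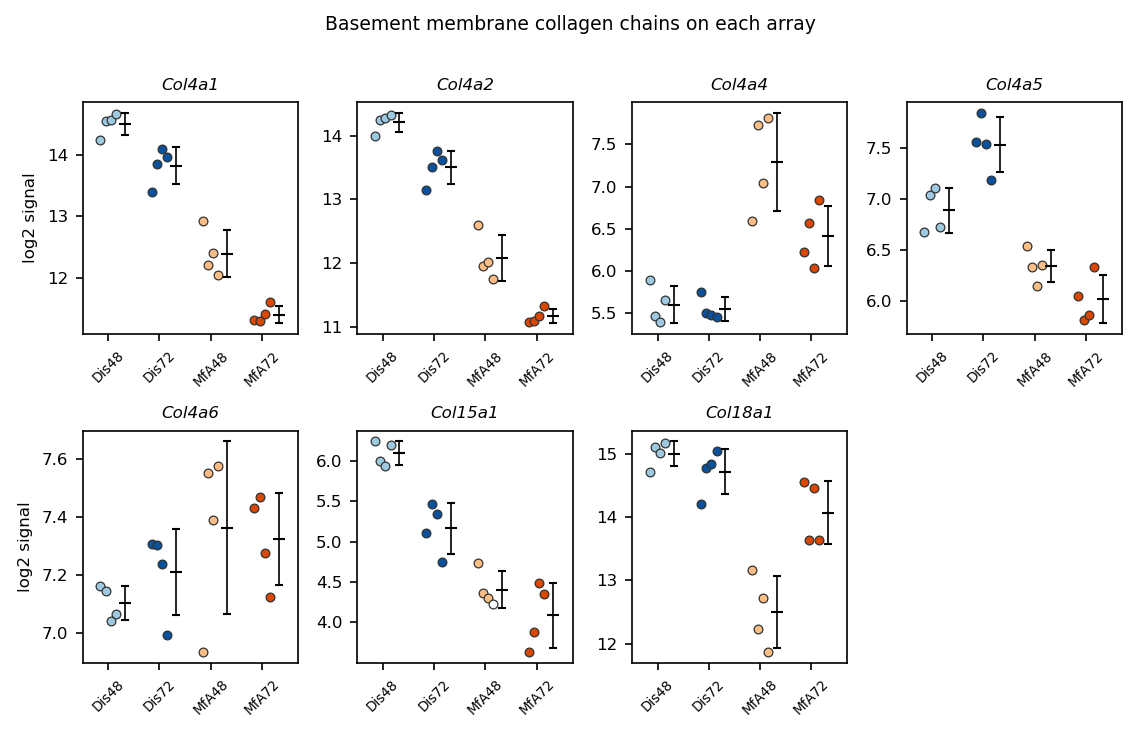
Log2 signal of 7 basement membrane chains on each of the 16 arrays, with the mean and SD of 4 arrays beside each group; open points are not well above background, and each panel has its own axis. Col4a1 and Col4a2 step down from Dis48 to MfA72, Col18a1 is lowest in MfA48, and Col4a4 is highest in MfA48.

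Type VI chains, which build the beaded filaments around muscle fibers, read lower at 72 than at 48 hr in both cultures, and 2 of the 3 tested chains passed in each. Over all genes 13.7% passed in dispersed and 5.48% in myofiber-associated myoblasts. Col6a1 read 12.36, 12.86, 13.06 and 13.09 at 48 hr and 10.94, 11.56, 11.59 and 11.67 at 72 hr in dispersed myoblasts. On fibers it read 12.74, 12.82, 12.90 and 13.20 at 48 hr and 11.96, 12.05, 12.13 and 12.66 at 72 hr. It fell 2.64-fold in dispersed myoblasts (adjusted p = 0.00226), and on fibers the difference of -0.72 ± 0.17 did not pass (adjusted p = 0.0238). Col6a2 read 9.74, 10.12, 10.47 and 10.59 at 48 hr and 7.93, 8.64, 8.74 and 8.78 at 72 hr in dispersed myoblasts. Fiber arrays gave 10.28, 10.36, 10.52 and 10.52 at 48 hr and 9.18, 9.22, 9.33 and 9.99 at 72 hr. Col6a2 fell 3.26-fold in dispersed (adjusted p = 0.00184) and 1.99-fold in myofiber-associated myoblasts (adjusted p = 0.00998), with no overlap between times in either. Its second probe differed by -1.17 and -0.91.

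Col6a3, the largest chain of the same filament, gave 12.96, 13.68, 13.86 and 13.91 at 48 hr and 12.14, 13.06, 13.32 and 13.39 at 72 hr in dispersed myoblasts, where the times overlapped (-0.62 ± 0.32, adjusted p = 0.19). On fibers it gave 13.22, 13.45, 13.47 and 13.51 at 48 hr and 11.49, 11.61, 11.62 and 12.34 at 72 hr, a fall of 3.13-fold (adjusted p = 0.00174) that remained with any array left out. None of the 3 differed between cultures at the threshold, at 48 or at 72 hr. At 72 hr Col6a1 and Col6a2 read 0.76 ± 0.20 and 0.91 ± 0.24 higher on fibers (adjusted p = 0.0177 and 0.0169) and Col6a3 read 1.21 ± 0.30 lower (adjusted p = 0.0129). The second Col6a2 probe, above background on all 16 arrays, did not share this higher level. On fibers it differed by 0.023 at 72 hr and by -0.236 at 48 hr, where the probe used read 0.193. Col6a4 was above background on 3 Dis72 arrays alone by the probe used, Col6a5 on no array by that probe and on 1 by another, and Col6a6 on none. Of 13 fibroblast genes, 10 were tested, 2 rose and 1 fell in dispersed and 1 rose and 3 fell in myofiber-associated myoblasts, and their summed log2 signal was 16.35 to 16.51 in Dis48, 15.87 to 16.38 in Dis72, 15.75 to 16.81 in MfA48 and 14.97 to 15.47 in MfA72. Fibroblasts are a known source of type VI collagen, and the part of these markers was not tested.

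The change over time differed between the cultures for 2 chains, Col10a1 and Col26a1, both with the larger difference on fibers. Over all genes the difference passed for 3.45%, with 1.09% higher and 2.36% lower in dispersed minus myofiber-associated change, and for the tested chains the share was 6.67%. Col10a1, the chain of the short network collagen of growth plate cartilage, read 6.78, 7.45, 7.74 and 7.75 at 48 hr and 8.07, 8.44, 8.54 and 8.92 at 72 hr in dispersed myoblasts. On fibers it read 2.999, 3.02, 3.53 and 4.42 at 48 hr and 6.56, 7.17, 7.29 and 7.82 at 72 hr. Only 1 of the MfA48 arrays, the pool titled 10+11 at 4.42, was above background. On fibers Col10a1 rose by 3.72 ± 0.36 on the log2 scale (adjusted p = 0.0011), and by 1.48 under the normexp correction of background (adjusted p = 0.00393), so the size of the rise depends on that correction. The times did not overlap in either culture, and in dispersed myoblasts the difference of 1.06 ± 0.25 did not pass (adjusted p = 0.0171). Dispersed minus myofiber-associated change was -2.66 ± 0.47 (adjusted p = 0.00385), and it lost its call without Dis48 replicate 2, 3 or 4 or Dis72 replicate 5 (adjusted p up to 0.0109) and under the normexp correction (-0.66, adjusted p = 0.142). At 48 hr Col10a1 differed by -3.94 ± 0.35 on fibers (adjusted p = 5.08e-05), or by -1.56 with normexp (adjusted p = 8.46e-05), against the same dim MfA48 arrays. At 72 hr it was 2.42-fold lower on fibers (adjusted p = 0.00674), a call lost with normexp (adjusted p = 0.0117) and without any array but MfA72 replicate 1 or Dis72 replicate 5 (adjusted p up to 0.0211). It has 1 probe on the array.

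Col26a1, a little studied secreted collagen, read 8.12, 8.17, 8.25 and 8.49 at 48 hr and 8.45, 8.56, 8.60 and 9.06 at 72 hr in dispersed myoblasts. On fibers it read 7.37, 7.70, 8.15 and 8.30 at 48 hr and 10.54, 10.63, 10.94 and 11.60 at 72 hr, and every MfA72 array was above all 12 others. It rose 8.27-fold on fibers (log2 3.05 ± 0.28, adjusted p = 0.000964) and the difference in dispersed myoblasts was 0.41 ± 0.14 (adjusted p = 0.0659). Dispersed minus myofiber-associated change was -2.64 ± 0.33 (adjusted p = 0.000615), called under every alternative tried. At 48 hr the cultures overlapped, and at 72 hr Col26a1 was 4.78-fold higher on fibers (adjusted p = 0.000268). A second probe rose by 2.97 on fibers and differed by 0.39 in dispersed myoblasts, and it overlaps the first, their positions being 5 bases apart.

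Among the collagens that attach to fibrils or sheets, Col7a1, the chain of the anchoring fibrils of skin, read 9.01, 9.02, 9.17 and 9.33 at 48 hr and 10.00, 10.18, 10.23 and 10.27 at 72 hr in dispersed and 9.70, 9.84, 10.09 and 10.20 at 48 hr and 10.41, 10.43, 10.66 and 10.93 at 72 hr in myofiber-associated myoblasts. All 72-hr arrays of Col7a1 lay above the 48-hr arrays of their culture. It rose 2.05-fold in dispersed myoblasts (adjusted p = 0.000177), read 0.65 ± 0.16 higher at 72 hr on fibers (adjusted p = 0.0247), and was 1.77-fold higher on fibers at 48 hr (adjusted p = 0.000933). Col12a1, which binds the surface of type I fibrils, gave 7.68, 7.94, 8.09 and 8.31 at 48 hr and 8.64, 8.94, 9.08 and 9.14 at 72 hr in dispersed myoblasts. Fiber arrays gave 5.66, 6.11, 6.52 and 6.84 at 48 hr and 6.95, 7.13, 7.94 and 8.03 at 72 hr, below the dispersed arrays of the same time. Its rise was 1.93-fold in dispersed myoblasts (adjusted p = 0.00346), and it was lower on fibers by 3.30-fold at 48 hr (adjusted p = 0.000621) and 2.71-fold at 72 hr (adjusted p = 0.00316, up to 0.0121 without Dis72 replicate 6 or 7). Col20a1, of the same fibril-associated group, read 6.72, 6.87, 6.94 and 7.003 at 48 hr and 5.45, 5.79, 5.83 and 6.08 at 72 hr in dispersed and 5.27, 5.54, 5.64 and 5.99 at 48 hr and 4.53, 4.95, 5.07 and 5.19 at 72 hr in myofiber-associated myoblasts. In both cultures the 72-hr arrays lay below the 48-hr arrays. It fell 2.14-fold in dispersed myoblasts (adjusted p = 0.000703) and was lower on fibers by 2.42-fold at 48 hr (adjusted p = 0.000206) and 1.80-fold at 72 hr (adjusted p = 0.0055, up to 0.0174 without Dis72 replicate 6, 7 or 8 or MfA72 replicate 1 or 4).

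Col22a1, a fibril-associated collagen known from the junction of muscle fiber and tendon, stood apart although its median signal kept it out of the tests, and it was chosen after its values were seen. On fibers it read 7.79, 8.57, 9.37 and 9.44 at 48 hr and 4.67, 4.78, 7.84 and 7.98 at 72 hr, above background on all 8 arrays. In dispersed myoblasts it was not above background on any Dis48 array and was above it on 1 Dis72 array. At 48 hr it was at least 25-fold higher on fibers. The MfA72 arrays split, with replicates 2 and 4 at 7.98 and 7.84 and replicates 1 and 3 at 4.67 and 4.78, and replicates 2 and 4 are also those with the higher fiber marker sums of 19.99 and 20.37. All 10 fiber genes were called higher on fibers at 48 hr and 9 at 72 hr, and the part of fiber RNA in the level of Col22a1 was not tested.

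**Figure D4:**
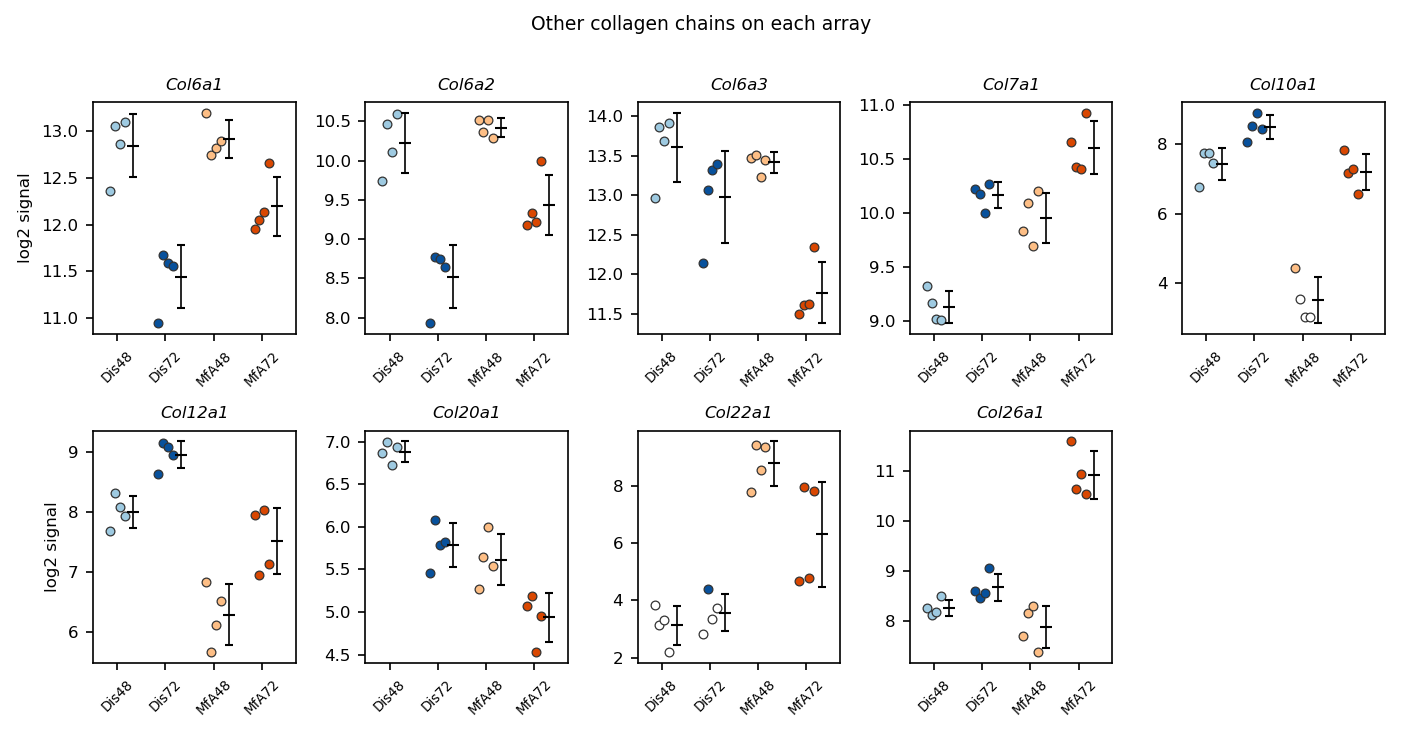
Log2 signal of 9 other chains on each of the 16 arrays, with the mean and SD of 4 arrays beside each group; open points are not well above background, and each panel has its own axis. Col26a1 is higher in MfA72 than in all other groups, 3 of the 4 MfA48 arrays are below the background limit for Col10a1, and Col22a1 splits the MfA72 arrays.

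Set against dispersed myoblasts, those on fibers had 2 tested chains higher and 12 lower at 48 hr, and 3 higher and 11 lower at 72 hr. The culture comparisons use the same arrays as the comparisons over time. Over all genes the shares called were 43.2% at 48 hr (16.1% higher and 27.0% lower) and 27.1% at 72 hr (11.5% higher and 15.6% lower), beside 46.7% of the tested chains at each time. The share at 48 hr was near that of all genes. Apart from the chains above, Col8a1, of the network made by endothelium among other cells, was 1.67-fold lower on fibers at 48 hr (adjusted p = 0.000163) and 2.53-fold lower at 72 hr (adjusted p = 0.000186), after a rise of 1.31-fold in dispersed myoblasts (adjusted p = 0.00211). Col13a1, a membrane collagen of the neuromuscular junction, was 3.14-fold lower at 48 hr (adjusted p = 0.00621) and 2.98-fold lower at 72 hr (adjusted p = 0.0057), and lost these calls without Dis48 replicate 1, 2, 3 or 4 or MfA48 replicate 9 (adjusted p up to 0.0197) and without Dis72 replicate 6, 7 or 8 or MfA72 replicate 2 (up to 0.0189). For Col13a1, 1 MfA48 and 1 MfA72 array were not above background, and the differences of -1.65 and -1.58 on the log2 scale became -0.70 and -0.54 with normexp. Of the calls between cultures, 11 of 14 at 48 hr and 8 of 14 at 72 hr remained with each of the 8 arrays left out in turn.

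Col23a1, another membrane collagen, fell 1.73-fold in dispersed myoblasts (adjusted p = 0.00804). The tested chains called in no comparison were Col4a6, Col5a2, Col9a1, Col9a2, Col14a1, Col16a1 and Col25a1. Col16a1, a fibril-associated chain, read lower at 72 hr on fibers by all of its 4 probes (-0.90 ± 0.21 by the probe used, adjusted p = 0.0232). The 2 probes of Col14a1 disagreed, at -0.07 and -0.98 in dispersed and -0.79 and 0.44 in myofiber-associated myoblasts, and no statement is made on that gene. Among the untested chains, Col8a2 was above background on all arrays of 3 groups but on none of Dis48 by the probe used, at least 1.32-fold higher in Dis72 and at least 1.30-fold higher in MfA48 than there. Its other probe, above background on 5 arrays, read the other way between cultures at 48 hr (-0.23). By group means, Col24a1 was at least 1.64-fold higher in MfA72 than in Dis72. Its MfA72 replicate 2 read 3.887, below the lowest signal above background on Dis72 replicates 7 and 8 (4.143 and 4.13). For Col8a2, Dis72 replicate 5 (4.162) and MfA48 replicate 8 (4.173) read below that of Dis48 replicate 3 (4.413). These small bounds are therefore not assured. Of the 16 arrays, Col19a1 was above background on 15, Col11a2 on 13, Col17a1 on 5 and Col28a1 on 4, the last on dispersed arrays alone.

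Genes that fold, cut, cross-link and bind collagen were read from 5 lists. Beside the counts over time in each list, 7.38% of all genes rose and 6.32% fell in dispersed myoblasts (median 0.02). In myofiber-associated myoblasts 3.74% of all genes rose and 1.74% fell (median 0.06). Of 20 tested genes of folding and modification, 1 was called over time in each culture, the chaperone Serpinh1 in dispersed myoblasts (0.21 higher on the log2 scale, adjusted p = 0.00495) and the lysyl hydroxylase Plod2 on fibers (0.92 higher, adjusted p = 0.00788). Between cultures 1 was higher and 11 were lower on fibers at 48 hr, and 2 were higher and 6 lower at 72 hr, where 16.1% of all genes were higher and 27.0% lower at 48 hr, and 11.5% and 15.6% at 72 hr. The list's median difference over time was 0.02 in dispersed and 0.20 in myofiber-associated myoblasts.

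Of 11 tested genes of procollagen cleavage and cross-linking, 0 rose and 1 fell in dispersed and 0 rose and 3 fell in myofiber-associated myoblasts, with list medians of 0.30 and -0.40. The procollagen proteinase Tll1 was lower at 72 hr on fibers by 1.64 (adjusted p = 0.000995) and the lysyl oxidase Loxl4 by 1.55 (adjusted p = 0.00221), and for both the change differed between cultures (Tll1 2.67, adjusted p = 0.000684, and Loxl4 2.30, adjusted p = 0.000482). Of 12 tested proteins bound to fibrils, 1 rose and 4 fell in dispersed and 0 rose and 2 fell in myofiber-associated myoblasts, and the medians were -0.46 and -1.04. Fn1, the fibronectin gene, rose by 0.91 in dispersed myoblasts (adjusted p = 0.00101), where the proteoglycan gene Aspn fell by 2.31 (adjusted p = 0.00354), and Lum, of the same proteoglycan family, fell by 2.02 on fibers (adjusted p = 0.00125).

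All 11 partners of type IV collagen in the basement membrane were tested, and 2 rose and 1 fell in dispersed and 1 rose and 2 fell in myofiber-associated myoblasts. On fibers 8 were lower and 0 higher at 48 hr and 6 lower and 0 higher at 72 hr, with medians of -1.02 and -0.70. Of all genes 27.0% were lower and 16.1% higher at 48 hr and 15.6% and 11.5% at 72 hr, with medians of -0.12 and -0.02. The laminin chain Lama5 rose by 0.89 on fibers (adjusted p = 0.00928) and Lama4, the laminin chain of vessels, fell by 1.98 (adjusted p = 0.00528). Of 11 tested collagen receptors, 1 rose and 1 fell in dispersed and 2 rose and 1 fell in myofiber-associated myoblasts, with medians of 0.08 and 0.13. Adgrg1 (Gpr56 on the array), a receptor of type III collagen, moved in opposite directions, by -0.69 in dispersed (adjusted p = 0.00609) and 1.40 in myofiber-associated myoblasts (adjusted p = 0.0011), a difference that passed (-2.08, adjusted p = 0.000147). Itga11, a subunit of a collagen integrin, fell by 2.15 on fibers (adjusted p = 0.00691). The collagen-binding kinase Ddr1 rose in both (0.59, adjusted p = 0.000877, and 0.88, adjusted p = 0.00896).

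Markers of other cells give the setting of these values. Beside the marker counts over time, 7.38% of all genes rose and 6.32% fell in dispersed, and 3.74% and 1.74% in myofiber-associated myoblasts. Between cultures 16.1% of all genes were higher and 27.0% lower on fibers at 48 hr, and 11.5% and 15.6% at 72 hr. Of 7 pericyte and smooth muscle genes, all tested, 4 fell in dispersed and 1 fell in myofiber-associated myoblasts. Of 7 tested Schwann cell genes 6 fell in dispersed and 0 were called on fibers, and 6 were lower on fibers at 48 hr and 4 at 72 hr. Of the 5 tenocyte genes 3 were tested. On fibers 2 were called higher and 1, Mkx, lower at 48 hr, and 1 was higher and 0 lower at 72 hr. Scx was higher on fibers at 48 hr (2.20, adjusted p = 0.000168) and at 72 hr (1.55, adjusted p = 0.0035) and Thbs4 at 48 hr (1.68, adjusted p = 0.000448), while Tnmd and Kera were above background on no array, and the summed signal of the list was 15.03 to 16.16 in MfA48 against 13.33 to 13.62 in Dis48. Among 7 tested leukocyte genes 1 rose and 1 fell in dispersed and 1 rose on fibers. Of 10 satellite cell and myoblast genes 4 rose and 0 fell in each culture, and for 3 (Pax7, Megf10 and Chrna1) the change differed between cultures in the direction of Col10a1 and Col26a1 (Pax7 by -1.49, adjusted p = 0.00191). Over all genes 2.36% were called in that direction and 1.09% in the other. The fibroblast, Schwann and leukocyte lists each had 1 call in that direction too. In the other direction 2 fibroblast genes and 1 endothelial gene were called. The part of these markers in the collagen results was not tested.

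**Figure D5:**
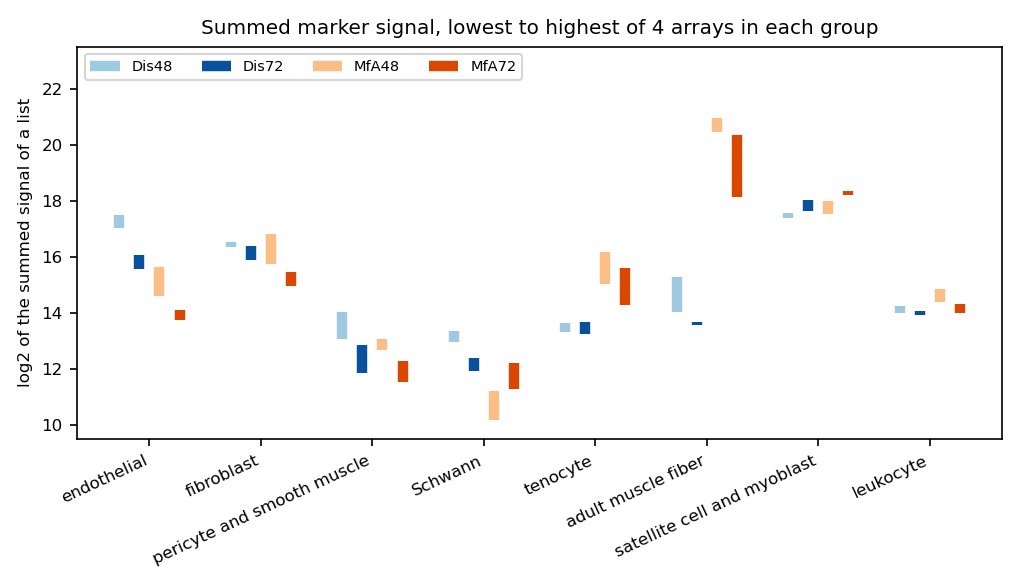
Log2 of the summed signal of 8 marker lists, each bar running from the lowest to the highest of the 4 arrays in a group. Endothelial sums step down from 17.0 to 17.5 in Dis48 to 13.7 to 14.1 in MfA72, and adult muscle fiber sums are far higher in both myofiber-associated groups.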

How the data were processed

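RNA was hybridised by the authors to 16 one-color Agilent mouse arrays, 4 in each of 4 groups defined by culture and time. Per the file headers, the intensity of each spot is the background-subtracted signal that Feature Extraction 11.0.1.1 wrote on a linear scale, and probe positions are those of mm9. The authors also deposited a table of log2 ratios against the 48-hr mean of each culture, normalised with limma, which leaves out the spread of the 48-hr arrays and served as an alternative.

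From the intensities, control spots and outlier spots were dropped, each array was fitted by loess (span 0.3, 4 iterations) to the 48-hr mean of its culture, and all arrays were quantile normalised on the log2 scale. The brightest probe stood for a gene. Where its log2 signal had a median of at least 5 over the arrays (20317 genes) it was tested with limma 3.58.1 in R 4.3.3, on the 8 arrays of a comparison, or on all 16 for the difference in change. Calls used a Benjamini-Hochberg adjusted p below 0.01 over all genes tested. The paper's SAM test is not installed here and limma took its place at the same threshold. The p-values measure the spread between arrays, each of 1 preparation from 1 or 2 mice, save the array titled 10+11, a pool of 2 preparations. Between cultures they cannot set culture apart from slide, and over time they cannot set time apart from slide column. The 4 arrays a group limit the precision. Where all arrays of a group were below the background limit, a difference from that group is given as a bound on the group means. The fits were tested on simulated data. Figures were drawn with Python 3.11.15 and matplotlib 3.10.9.

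The members and lists were chosen with earlier results of these data known. Values on every array are given for called chains, up to the 16 with the largest change, and for the abundant chains of types I, III, IV, V, VI, XV and XVIII. Of each pathway list at most 4 genes are named, from those with the largest called changes over time. Alternatives were another background correction, scaling to the 75th percentile, quantile normalisation alone, other filters, the mean of all probes, the slide row as a block, 1 fit of all arrays, type IV chains alone as the basement membrane class, the deposited ratios, and leaving out each array in turn.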

Additional observations from a re-analysis of the deposited data

Results flagged for a closer look

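In 90 sets of 4 values, each of 1 chain in 1 group of arrays, the value farthest from the others was checked against Dixon's critical value. Chance passes it in about 1 of 20 sets, and 4 values passed, which is near that rate. In Dis72, replicate 5 read 10.943 for Col6a1 where the other arrays were at 11.56 to 11.674, and 7.927 for Col6a2 where they were at 8.643 to 8.777. The same array read 5.757 for Col4a4, above the others at 5.462 to 5.502. In MfA72, replicate 4 read 12.338 for Col6a3, above the others at 11.494 to 11.62. The falls of Col6a1 and Col6a2 in dispersed myoblasts and of Col6a3 on fibers remained called with the array concerned left out.

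The change over time differed between cultures in limma's test of that difference for Col10a1, by -2.66 (dispersed minus myofiber-associated, log2), and for Col26a1, by -2.638. For Col10a1, 3 of the 4 MfA48 arrays were not above background.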

How the results depend on the processing

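Of 820 alternative values of the 48 calls on chains, 672 kept direction and call, 148 kept direction and lost the call, and 0 reversed. Counts of called chains were 10 (dispersed over time), 8 (myofiber-associated over time), 2 (difference in change), 14 (cultures at 48 hr) and 14 (cultures at 72 hr). In dispersed myoblasts the count became 4 in 1 fit of all 16 arrays. In myofiber-associated myoblasts it became 5 with the normexp correction, 3 with no filter on low signal, 5 with a filter on signal above background, 5 with the slide row as a block, 17 in 1 fit of all 16 arrays and 15 in the deposited table, whose ratios leave out the 48-hr spread. The difference in change gave 6 in the deposited table and 6 without MfA72 replicates 2 and 4, an alternative chosen after seeing the data. With arrays left out 1 at a time, counts ranged over 6 to 10 in dispersed (6 without Dis48 replicate 4 or Dis72 replicate 6 or 7) and 3 to 9 in myofiber-associated myoblasts (9 without the pool 10+11, 8 without MfA72 replicate 4, and 3 or 4 without any other), 1 to 5 for the difference (5 without MfA72 replicate 4, and 1 without Dis48 replicate 2, 3 or 4 or Dis72 replicate 5), 11 to 17 at 48 hr and 8 to 15 at 72 hr (8 without Dis72 replicate 6 or 7). Scaling to the 75th percentile split the calls on fibers over time into 3 higher and 6 lower, against 4 and 4, and normexp split those in dispersed myoblasts into 7 and 4, against 5 and 5. Where the text does not name a cause, the cause was not tested. No paired analysis was possible because the groups compared share no replicate numbers. The normexp correction, which adds a constant of 50 to each signal, moved called values by over 1.5 times: on fibers over time Col10a1 from 3.72 to 1.48 and Col2a1 from 2.195 to 1.498, and between cultures at 48 hr Col10a1 from -3.94 to -1.56, Col12a1 from -1.72 to -1.13, Col13a1 from -1.65 to -0.70 and Col4a4 from 1.69 to 1.01, with the calls kept. In the deposited ratios the rise of Col10a1 on fibers was 2.68 and its difference in change was -1.74. Signal near background limits Col10a1, Col13a1 and the 14 untested chains.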
